A study of Mus musculus with 8 samples.

Results

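The liver acute phase genes described here are 10: the serum amyloid A genes Saa1, Saa2, Saa3 and Saa4, the orosomucoid genes Orm1, Orm2 and Orm3, and Lcn2, Steap4 and Apcs. They were found by matching the Ensembl identifier of each of the 56884 genes in the count tables to its symbol, and all 10 were present. They were chosen by their function and by their fold change between the diets in these same libraries, so their difference between the diets is given as a description, without a test.

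The data were 3′-enriched poly(A) RNA sequencing counts from whole liver of 18-month-old female C57BL/6J mice, with 1 library per numbered mouse. From 2 months of age all mice ate a high fat diet, in which lipids supplied 45%, protein 20% and carbohydrate 35% of the energy. After 4 months on it, the diet-induced obese (DIO) group, with 3 libraries numbered 1, 4 and 5, stayed on this diet. In the DIO + DHA group, with 5 libraries numbered 1, 2, 4, 5 and 6, 15% by weight of the dietary lipids was replaced by a fish oil concentrate rich in docosahexaenoic acid (DHA). Its content was 683.4 mg of DHA, 46.7 mg of eicosapentaenoic acid and 838.9 mg of total n-3 fatty acids per g. Both groups were fasted overnight before collection and housed several mice to a cage, both diets contained tocopherols, and there was no lean group, so every level below is one measured in old, obese, fasted females.

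The acute phase response is the rapid change in plasma protein output of the liver during infection, injury or inflammation. Hepatocytes receive interleukin 6 and interleukin 1 through their receptors, and the transcription factors STAT3, C/EBP beta, C/EBP delta and NF-kB then raise transcription of the positive acute phase genes. Saa1 and Saa2 encode the inducible serum amyloid A proteins, which travel on high density lipoprotein, and Saa4 encodes the constitutive form. Saa3 is made mainly outside the hepatocyte, in macrophages and adipocytes among other cells. The orosomucoids are glycosylated lipocalins that bind drugs and lipids, Lcn2 encodes a lipocalin that withholds iron from bacteria by binding their siderophores, and Steap4 encodes a membrane metalloreductase for iron and copper. Apcs encodes serum amyloid P component, the pentraxin that serves as an acute phase protein in the mouse.

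The Saa genes lay in 1 cluster on chromosome 7 and the Orm genes in 1 cluster on chromosome 4 (GRCm39). From the lower coordinate, the Saa cluster read Saa3 (chr7:46361422-46365124), Saa4 (chr7:46377422-46382027), Saa1 (chr7:46389921-46392404) and Saa2 (chr7:46401214-46403737), with Saa2 on the plus strand and the others on the minus strand. Saa1 and Saa2 thus faced away from each other across 8809 bases. The Orm cluster read Orm1 (chr4:63262797-63266400), Orm3 (chr4:63274399-63277748) and Orm2 (chr4:63280686-63284115), all on the plus strand, with 2937 bases between Orm3 and Orm2. Lcn2 (chr2:32274645-32278264, minus strand), Steap4 (chr5:8010457-8032213, plus strand) and Apcs (chr1:172721528-172722608, minus strand) stood alone. No exon of the 10 genes overlapped an exon of another gene.

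Promoter windows, from 250 bases before to 50 bases after the annotated start, were found for 9 of the 10 genes in the RefSeq table of the assembly GRCm38.p6, and Orm1 had no entry. The 5 printed here are 2 pairs of neighbours with near-identical promoters (Saa1 with Saa2, Orm2 with Orm3) and Steap4, which alone held matches to 3 of the motifs marked. Capitals mark a match on either strand to TTGCNNAA (a C/EBP motif), TTCCNGGAA (a STAT3 motif) or GGGNNTTTC (an NF-kB motif), of which STAT3 and NF-kB matches occur in Steap4. Coordinates are those of GRCm38.p6.
Saa1 (chr7:46742931-46743230, minus strand): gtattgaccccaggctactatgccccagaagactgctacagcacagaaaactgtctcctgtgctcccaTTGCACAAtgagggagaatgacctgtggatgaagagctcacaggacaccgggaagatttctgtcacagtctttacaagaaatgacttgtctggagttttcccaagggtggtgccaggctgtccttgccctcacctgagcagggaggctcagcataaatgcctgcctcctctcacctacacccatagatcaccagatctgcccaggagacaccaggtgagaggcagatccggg
Saa2 (chr7:46751583-46751882, plus strand): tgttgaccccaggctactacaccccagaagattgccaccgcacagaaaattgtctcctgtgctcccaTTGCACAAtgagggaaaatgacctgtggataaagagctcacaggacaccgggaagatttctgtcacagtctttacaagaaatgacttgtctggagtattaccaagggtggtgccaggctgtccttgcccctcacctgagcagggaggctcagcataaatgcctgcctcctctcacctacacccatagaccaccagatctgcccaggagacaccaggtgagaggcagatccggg
Orm2 (chr4:63362199-63362498, plus strand): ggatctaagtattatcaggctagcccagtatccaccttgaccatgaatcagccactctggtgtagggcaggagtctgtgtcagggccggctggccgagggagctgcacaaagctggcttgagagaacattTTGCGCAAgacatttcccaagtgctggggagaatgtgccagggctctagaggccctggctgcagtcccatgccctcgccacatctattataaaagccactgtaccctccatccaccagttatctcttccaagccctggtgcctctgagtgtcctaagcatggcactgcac
Orm3 (chr4:63355908-63356207, plus strand): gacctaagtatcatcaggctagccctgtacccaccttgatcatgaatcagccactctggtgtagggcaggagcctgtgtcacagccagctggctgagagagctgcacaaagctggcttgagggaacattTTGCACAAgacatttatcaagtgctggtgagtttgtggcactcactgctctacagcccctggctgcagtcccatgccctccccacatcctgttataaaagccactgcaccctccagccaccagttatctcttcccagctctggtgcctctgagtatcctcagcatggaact
Steap4 (chr5:7960222-7960521, plus strand): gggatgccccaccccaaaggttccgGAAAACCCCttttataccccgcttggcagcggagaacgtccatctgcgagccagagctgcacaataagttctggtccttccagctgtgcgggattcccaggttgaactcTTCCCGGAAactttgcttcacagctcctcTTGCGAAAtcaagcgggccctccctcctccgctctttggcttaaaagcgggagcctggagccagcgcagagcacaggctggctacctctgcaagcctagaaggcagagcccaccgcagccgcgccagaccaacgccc

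The Saa1 and Saa2 windows were identical at 287 of 299 aligned bases (96.0%), and Orm2 and Orm3 at 264 of 295 (89.5%). TTGCNNAA occurred in 8 of the 9 windows, all but that of Apcs, and in 10.8% of all 32851 mouse promoter windows of the same length. It is contained in the looser C/EBP motif TTNCNNAA, which occurred in the same 8 windows and in 40.7% of all windows. The first base of the TTGCNNAA match lay at -182 from the start in Saa1 and at -183 in Saa2, and at -120 in Orm2 and -121 in Orm3. The nearest to the start lay at -52, in Saa4.

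Only the Steap4 window of the 9 held the STAT3 motif, at -116, and the NF-kB motif, at -225. These occurred in 1.15% and 4.36% of all windows. The looser STAT motif TTCNNNGAA, which contains the STAT3 motif, was found in Steap4 and Apcs and in 8.30% of all windows. The glucocorticoid receptor half-site AGAACA was found in Orm2 and Apcs and in 6233 of the 32851 windows. TATAAA was found in Orm2, Orm3 and Steap4 and in 13.6% of all windows. The HNF1 motif GTTAATNAT was found in none of the 9 and in 0.801% of all windows. A match describes letters in the window, not a bound site.

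**Figure D1:**
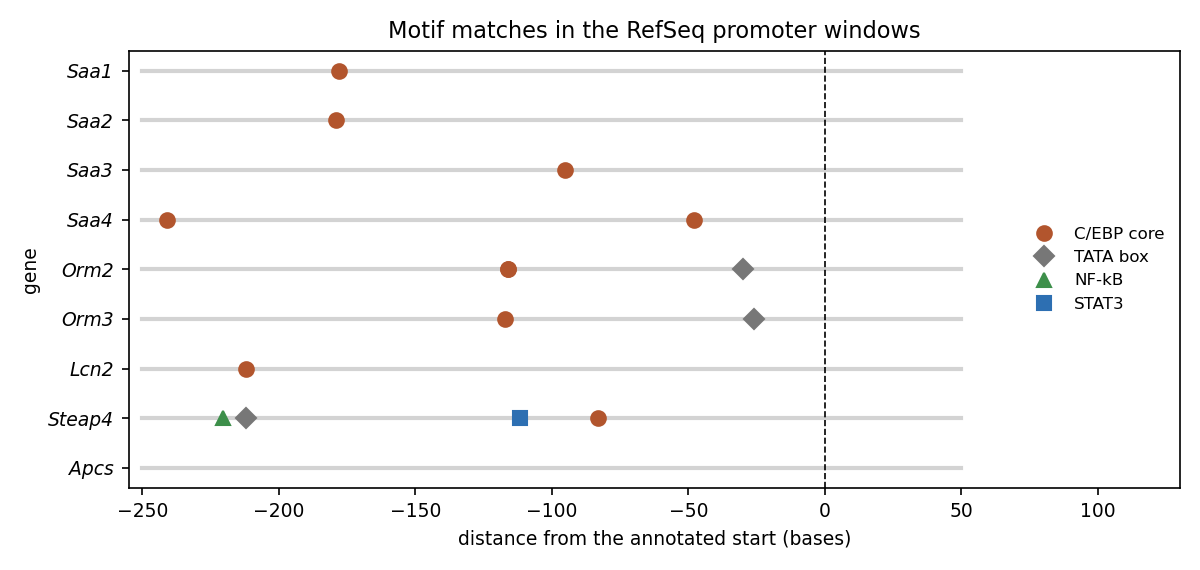
Motif matches in the promoter windows of 9 acute phase genes, one row per gene, with the distance from the annotated start in bases on the x axis (dashed line at the start, grey bar for the window searched). Symbols mark the middle of a match on either strand: TTGCNNAA (C/EBP core) was present in 8 of the 9 rows, and STAT3 and NF-kB matches in Steap4 alone.

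All 10 genes were lower in the DIO + DHA group. In CPM (counts scaled to library size and by the trimmed mean of M values), the 10 genes summed to 9575 ± 576 (SD, n = 3) in DIO and to 3363 ± 138 (SD, n = 5) in DIO + DHA. As a share of all counts of a library, that was 0.922 to 0.996% in DIO and 0.324 to 0.341% in DIO + DHA. The log2 fold changes (DIO + DHA against DIO, edgeR) ran from -2.08 in Lcn2 to -0.60 in Orm1, with a median of -1.68, beside a median of 0.00 over the 12412 genes that passed the filter on low counts. All 10 passed that filter, with between 48 and 18385 counts in a library.

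For all 10, every DIO + DHA library lay below every DIO library, a separation found in 8.88% of all genes tested. All 10 were also below an adjusted p of 0.05 in the edgeR quasi-likelihood fit (Benjamini-Hochberg), where 7.28% of all genes tested were lower and 7.89% higher. Because the genes were selected on this contrast, nothing is read from these counts. In whole liver, fewer cells of a type and less RNA per cell cannot be told apart.

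**Figure D2:**
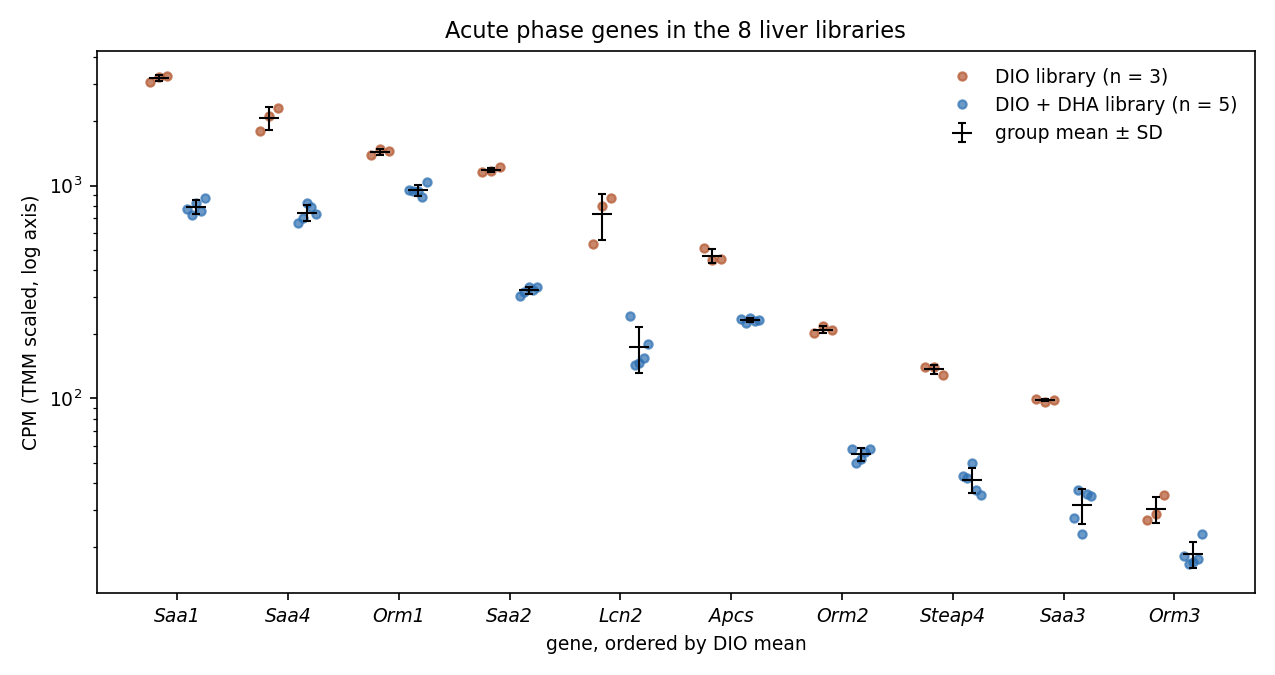
CPM of the 10 genes on a log axis, genes ordered by their DIO mean, with 1 point per library (3 DIO, 5 DIO + DHA) and the group mean ± SD in black. The groups do not overlap for any gene, with the widest spread between libraries in Lcn2 and the narrowest gap in Orm3, where the lowest DIO library was 27.0 and the highest DIO + DHA library 23.1.

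Total counts per library ran from 1723800, in DIO library 1, to 5690347, with a median of 4495644. The hepatocyte markers were abundant in every library, summing to 67042 to 72107 CPM in DIO and 66641 to 80454 CPM in DIO + DHA over 8 genes. The groups also differed in markers of other cells. The 12 macrophage markers summed to 870.0 to 974 CPM in DIO and 502 to 537 CPM in DIO + DHA, and the 8 adipocyte markers to 45.0 to 53.7 and 97.0 to 131 CPM. Of 6 adipocyte markers tested, 4 were called higher (edgeR, adjusted p under 0.05). Plin4 was called lower, at 21.3 and 11.3 CPM on average, and 1 was not called. Among all genes tested, 7.89% were called higher and 7.28% lower. The 10 skeletal muscle markers summed to 30.2 to 35.4 CPM in DIO and 1191 to 1246 CPM in DIO + DHA. The 8 squamous epithelium markers summed to 0 to 0.361 CPM in DIO and 47.6 to 51.3 CPM in DIO + DHA. The part of these differences in the acute phase values was not tested. Leaving muscle and squamous markers out of the scaling hardly changed it, with a Saa1 log2 fold change of -2.005 against -2.006. All 10 log2 fold changes stayed negative, which says nothing on RNA of other tissues in the libraries.

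Saa1 was the most abundant of the 10 genes in DIO liver on the CPM scale and overlapped with Saa4 in DIO + DHA. It measured 3066, 3227 and 3262 CPM in DIO libraries 1, 4 and 5, and 772, 728, 831, 757 and 877 CPM in DIO + DHA libraries 1, 2, 4, 5 and 6. The DIO + DHA mean was 24.9% of the DIO mean, with a log2 fold change of -2.01 (SE 0.06). The lowest DIO library was 3.50 times the highest DIO + DHA library.

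Saa2, its neighbour and closest paralog, was lower by nearly the same factor. Its values were 1161, 1175 and 1218 CPM in DIO and 304, 316, 333, 324 and 332 CPM in DIO + DHA, a mean of 27.2% of DIO and a log2 fold change of -1.88 (SE 0.06). The libraries within each group were close together, with a coefficient of variation of 2.51% in DIO and 3.79% in DIO + DHA, where counting alone gives 1.62% and 2.89%.

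The constitutive Saa4 was lower as well, by a smaller factor. It measured 1810, 2127 and 2315 CPM in DIO and 663, 707, 824, 790 and 731 CPM in DIO + DHA, with a log2 fold change of -1.49 (SE 0.07). Saa4 was thus the second most abundant of the 10 in DIO by CPM, and its libraries in DIO spread more widely than those of Saa1 or Saa2, with a coefficient of variation of 12.2%.

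Saa3 was the least abundant Saa gene. It measured 99.0, 96.6 and 98.5 CPM in DIO and 27.6, 37.2, 23.2, 35.6 and 34.7 CPM in DIO + DHA, with a log2 fold change of -1.62 (SE 0.10). The 3 DIO libraries agreed within counting error (coefficient of variation 1.27%, against 5.58% from counting), and the 5 DIO + DHA libraries spread by 18.96%. Of the 12 macrophage markers, 10 were called lower (edgeR quasi-likelihood test, Benjamini-Hochberg adjusted p under 0.05), and Marco was called higher. Among all genes tested, 7.28% were called lower and 7.89% higher. The scavenger receptor Cd68 had a log2 fold change of -1.36 and the Kupffer cell lectin Clec4f of -0.72. Their part in the Saa3 values was not tested.

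Orm1, the most abundant orosomucoid, had the smallest fold change of the 10 genes with all libraries, not separated from that of Orm3 by the SE. Without DIO library 5 the order turned, with log2 fold changes of -0.58 in Orm1 and -0.57 in Orm3. Its values were 1391, 1481 and 1458 CPM in DIO and 950, 939, 945, 880 and 1042 CPM in DIO + DHA, so that the DIO + DHA mean was 65.9% of the DIO mean (log2 fold change -0.60, SE 0.06). The lowest DIO library was still 1.33 times the highest DIO + DHA library.

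Orm2 was lower by a factor close to that of Saa1. It measured 202, 219 and 210 CPM in DIO and 57.7, 49.9, 51.7, 56.2 and 57.7 CPM in DIO + DHA, a mean of 26.01% of DIO and a log2 fold change of -1.94 (SE 0.08). Its spread in DIO + DHA, 6.57%, did not exceed the 7.07% that counting gives.

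Orm3, whose promoter window is the near copy of that of Orm2, was the least abundant of the 10 genes, with a fold change close to that of Orm1. It measured 27.0, 28.7 and 35.1 CPM in DIO and 18.2, 16.8, 17.1, 17.6 and 23.1 CPM in DIO + DHA, with a log2 fold change of -0.72 (SE 0.14). The highest DIO + DHA library, number 6, came close to the lowest DIO library, which was 1.17 times as high.

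Lcn2 had the lowest log2 fold change with all libraries, which its SE did not separate from those of Saa1, Orm2 and Saa2. Lcn2 also had the widest spread between mice. It measured 531, 800.0 and 874 CPM in DIO and 244, 143, 146, 156 and 180 CPM in DIO + DHA, giving a log2 fold change of -2.08 (SE 0.23). Without DIO library 5 it was -1.928, above the -1.931 of Orm2 and the -1.98 of Saa1. The coefficient of variation was 24.6% in DIO and 23.9% in DIO + DHA, where counting alone gives 2.23% and 4.08%. Lcn2 protein is also stored in neutrophil granules. The 12 neutrophil markers summed to 19.1 to 23.96 CPM in DIO and 16.4 to 24.5 CPM in DIO + DHA. Of these, S100a8, S100a9, Retnlg and Csf3r were tested and none was called (edgeR, adjusted p between 0.189 and 0.683). Retnlg measured 5.37 and 3.73 CPM on average in DIO and DIO + DHA, Csf3r 2.43 and 1.25 CPM, S100a8 7.69 and 6.89 CPM, and S100a9 5.06 and 7.01 CPM. Mmp8, at 1.28 and 0.540 CPM, was below the filter, and Cxcr2, Ngp, Ltf, Camp, Ly6g, Mpo and Elane had at most 3 counts in a library, with Mpo, Elane and Camp at 0 in all DIO libraries. The part of neutrophils in the Lcn2 values was not tested.

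Steap4 measured 141, 141 and 129 CPM in DIO and 43.4, 42.2, 49.6, 37.2 and 35.4 CPM in DIO + DHA, with a log2 fold change of -1.73 (SE 0.09). Its change was thus near the middle of the 10 genes. Apcs was lower by a factor close to 2.00, from 507, 446 and 449 CPM in DIO to 236, 226, 239, 231 and 234 CPM in DIO + DHA (log2 fold change -0.997, SE 0.07). The coefficient of variation of its DIO + DHA libraries was 2.11%, less than the 3.39% of counting.

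The proportions between paralogs differed between the groups in both families. Since the genes were selected on the diet contrast, this too is a description. The shares are computed within a library, so they do not depend on how libraries are scaled. Orm2 took 12.5%, 12.6% and 12.3% of the Orm counts in DIO libraries 1, 4 and 5, and 5.63%, 4.96%, 5.10%, 5.89% and 5.13% in the DIO + DHA libraries. The exact 95% binomial intervals had a lowest bound of 11.3% in DIO and a highest bound of 6.66% in DIO + DHA. They cover counting error within a library only, and nothing on the diets is read from them. Orm1 held 85.7 ± 0.127% (SD, n = 3) and 92.8 ± 0.449% (SD, n = 5) of the family, and Orm3 1.80 ± 0.231% and 1.81 ± 0.159%. In counts, there were 6.87 ± 0.0867 Orm1 for each Orm2 in DIO and 17.5 ± 1.33 in DIO + DHA, whereas Orm1 over Orm3 was 48.2 ± 5.81 and 51.7 ± 4.43, with overlapping ranges.

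Orm1 and Orm2 are near copies at the sequenced end of their transcripts. Of the 221 windows of 80 bases, the read length, in the last 300 bases of each transcript, 94 (42.5%) occurred in both genes. Reads from those windows have no unique place in the genome, so the Orm1 and Orm2 levels and their ratio are uncertain. Orm3 shared no such window, and Saa3 shared 26 of 221 (11.8%) with repeats in many other genes. None of the windows of the other 6 genes was shared. The transcript searched was longer than all counted exons combined for Saa4 (3031 against 2094 bases) and Steap4 (3486 against 3155). The same held by less for Orm1, Orm3, Saa3 and Apcs, and not for Saa1, Saa2, Orm2 and Lcn2. Whether the last 300 bases lay within the counted exons was not tested, so the windows may not describe the reads counted.

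In the Saa family, the share of Saa4 was higher in DIO + DHA and that of Saa1 lower. Saa4 made up 31.7 ± 2.06% (SD, n = 3) of the Saa counts in DIO and 39.3 ± 1.98% (SD, n = 5) in DIO + DHA, and Saa1 48.7 ± 1.32% and 42.0 ± 2.00%. The ranges did not overlap for either. Saa1 over Saa4 was 1.54 ± 0.143 in DIO and 1.07 ± 0.104 in DIO + DHA. Saa3 held 1.43 to 1.61% in DIO and 1.15 to 2.08% in DIO + DHA, ranges that overlap.

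Within the inducible pair, the proportions were close. Saa2 took 26.7 to 27.5% of the counts of Saa1 and Saa2 in DIO, and 27.5 to 30.2% in DIO + DHA, a mean of 27.1 ± 0.391% (SD, n = 3) against 28.9 ± 1.17% (SD, n = 5). The highest DIO library, at 27.4687%, and the lowest DIO + DHA library, at 27.4697%, practically met, and their exact 95% binomial intervals overlapped.

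**Figure D3:**
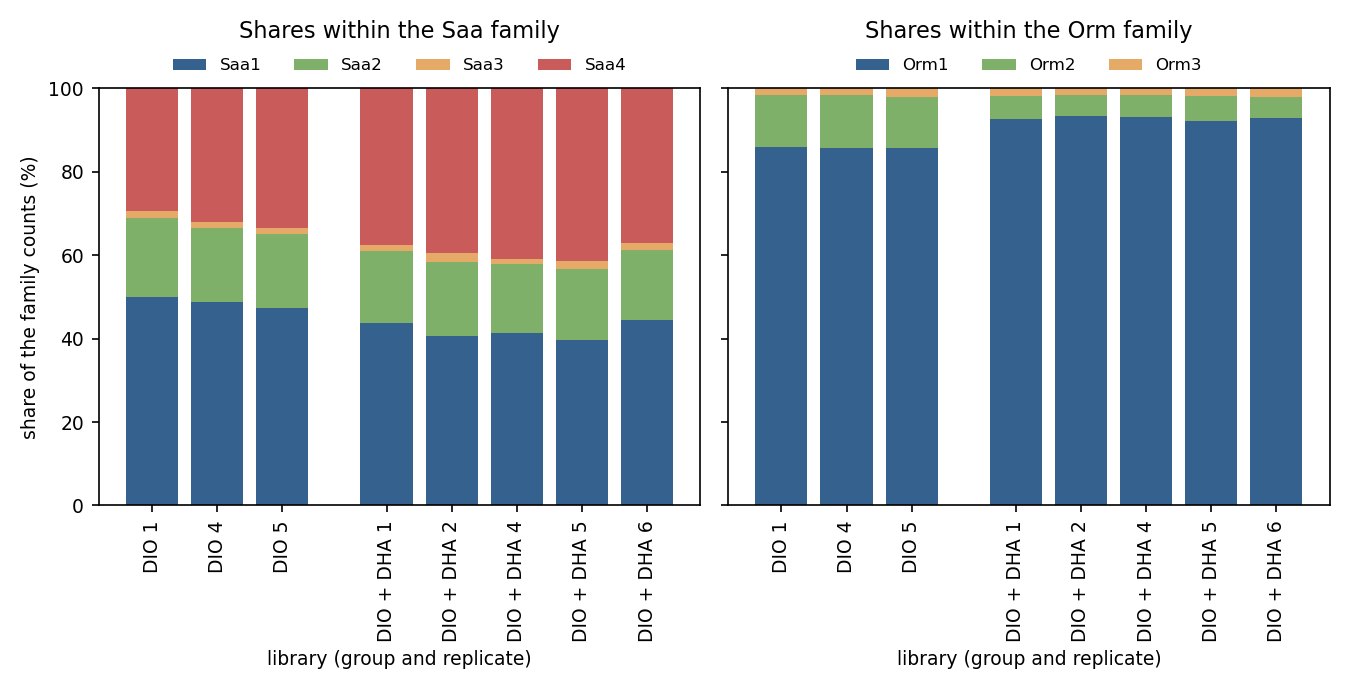
Share of each paralog in the counts of its family (y axis, %), with 1 stacked bar per library for the Saa family on the left and the Orm family on the right. The Orm2 segment goes from 12.3 to 12.6% in DIO to 4.96 to 5.89% in DIO + DHA, and the Saa4 segment from 29.5 to 33.6% to 37.0 to 41.4%.

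The order of the 10 genes by level changed with the diet and with the scale. On the CPM scale, the order in DIO was Saa1, Saa4, Orm1, Saa2, Lcn2, Apcs, Orm2, Steap4, Saa3 and Orm3, and no neighbours in this order overlapped. In DIO + DHA, Orm1 came first, ahead of Saa1 and Saa4, which overlapped, and of Saa2. Apcs and Lcn2 overlapped there, as did Steap4 and Saa3. Saa1 over Orm1 was 2.21 ± 0.0290 in DIO and 0.834 ± 0.0409 in DIO + DHA.

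Per kilobase of exon, which suits a comparison between genes in whole-transcript data but may overcorrect 3′-end counts, Orm1 led in both groups. Its mean was 1862 CPM per kilobase in DIO and 1227 in DIO + DHA. Saa1 followed in DIO with 1285 and Saa4 with 995, and in DIO + DHA Saa4 and Saa1, at 355 and 320.1, overlapped. Saa3 and Steap4 were at the lower end on this scale, with 37.6 and 43.4 CPM per kilobase in DIO and 12.1 and 13.2 in DIO + DHA, and overlapped in DIO + DHA. The length used was that of all annotated exons combined, 2478 bases for Saa1, whose longest protein-coding transcript has 863. For Orm1 these lengths were 775 and 871 bases. The order per kilobase, with Orm1 ahead of Saa1 in DIO, therefore depends on the length chosen.

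Whether mice with a higher level of one of these genes also had a higher level of the others was asked within the diet groups, since that variation was not used to choose the genes. The log2 CPM of each gene was expressed as its deviation from the group mean, and all 45 pairs were compared over the 8 libraries by an exact two-sided permutation of libraries within groups (720 arrangements, smallest possible p 0.00139). Pearson's r was above 0 in 21 of the 45 pairs, with a median of -0.02 and a range of -0.78 to 0.79. The median was 0.18 without DIO library 1, and likewise without DIO + DHA library 1. No pair passed Benjamini-Hochberg adjustment over the 45, by r or by Spearman's rho, and 3 had an unadjusted p under 0.05 by r and 5 by rho.

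The 3 by r were Saa2 with Saa4, Orm2 with Lcn2, and Saa1 with Orm3. For Saa2 and Saa4, r was 0.79 and Spearman's rho 0.79 (exact permutation p = 0.0236 for both, adjusted 0.604 and 0.375, n = 8), and r was 0.65 without the 2 libraries farthest from the Saa2 median. For Orm2 and Lcn2, r was 0.72 (exact permutation p = 0.0375, adjusted 0.604) and rho 0.76 (p = 0.0236, adjusted 0.375), with r = 0.68 without the 2 farthest libraries. For Saa1 and Orm3, r was 0.73 (exact permutation p = 0.0403, adjusted 0.604) and rho 0.64 (p = 0.101, adjusted 0.611), and r dropped to 0.32 without the 2 farthest libraries, on which it therefore rests. By rho, Saa2 with Saa4 and Orm2 with Lcn2 were joined by Orm3 with Lcn2 (rho 0.83, exact permutation p = 0.0361, r 0.53), Saa1 with Orm1 (rho 0.76, p = 0.0389, r 0.77) and Orm1 with Orm3 (rho 0.79, p = 0.0472, r 0.72), all with an adjusted p of 0.375.

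The neighbours Saa1 and Saa2 had an r of 0.68 and a rho of 0.69 (exact permutation p = 0.122 for both, adjusted 0.674 and 0.611). Without the 2 farthest libraries r was 0.64, and with scaling by library size alone it was 0.23 over all 8. The lowest r, -0.78, belonged to Saa3 and Steap4 (rho -0.79, exact permutation p = 0.135 and 0.114, adjusted 0.674 and 0.611). A shared rise and fall of the 10 genes from mouse to mouse was thus not detected with 8 libraries. The spread of Saa3 in DIO, and of Orm2 and Apcs in DIO + DHA, did not exceed counting error. Pairs with these genes could therefore hardly show one. Orm2 and Steap4 in DIO were close to counting error, with coefficients of variation of 3.94% against 3.85% and 4.87% against 4.71%. Orm3 was at 14.2% against 10.4% in DIO and 14.1% against 12.2% in DIO + DHA. Several of the pairs named above hold Orm2 or Orm3, so their r and rho may rest partly on counting error.

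**Figure D4:**
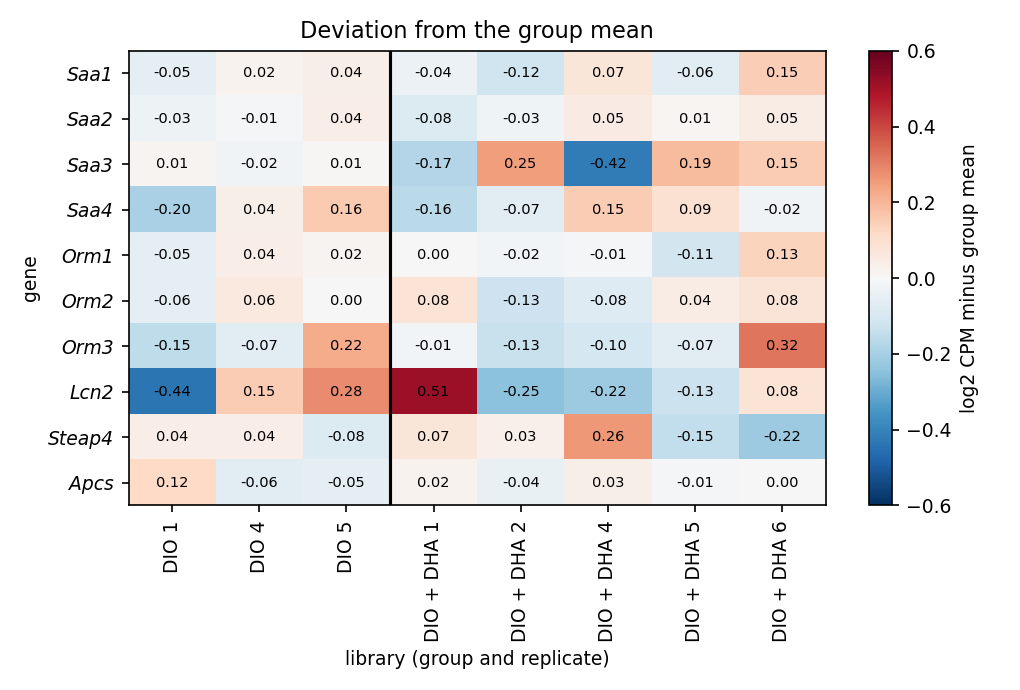
Deviation of each gene's log2 CPM from its group mean (colour and number), genes in rows and the 3 DIO and 5 DIO + DHA libraries in columns, with a black line between the groups. The widest deviations are those of Lcn2, from -0.44 in DIO library 1 to 0.51 in DIO + DHA library 1, and in neither library do all other genes deviate in the same direction.

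Across the 8 libraries together, where the difference between the groups sets the pattern, the gene most like Saa1 by Pearson's r of log2 CPM was Saa2 (0.998), followed by Orm2 (0.996), among the 6223 genes whose mean over libraries reached 10 CPM. The 5 most similar genes outside the 10 were H2-Ab1, an MHC class II chain, Upp2, a uridine phosphorylase, Cd5l, a macrophage secreted protein, Nat8f2, an acetyltransferase family member, and Slc39a14, a zinc and iron importer. Their r was between 0.993 and 0.995. Apcs was at rank 21, Saa4 at 27, Orm1 at 29, Steap4 at 45, Lcn2 at 100, Saa3 at 106 and Orm3 at 227. All these r values rest on 2 clusters of libraries and carry no test.

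The remaining positive acute phase genes, 37 in all and 35 tested, were mostly lower as well. In the edgeR quasi-likelihood fit with Benjamini-Hochberg adjustment over all genes, 23 of the 35 fell and 2 rose, with a median log2 fold change of -0.42. Of all genes tested, 7.28% fell and 7.89% rose. Values here and for the lists that follow are means ± SD of the 3 DIO and the 5 DIO + DHA libraries, in that order. Of the 4 most abundant, the haemoglobin scavenger haptoglobin (Hp) fell from 16009 ± 1208 to 10977 ± 417 CPM (log2 fold change -0.54, adjusted p = 1.9e-11) and fibrinogen beta (Fgb) from 9073 ± 547 to 6377 ± 379 CPM (-0.51, adjusted p = 4.41e-10). The antitrypsin genes Serpina1b (12499 ± 1171 and 12562 ± 1218 CPM, adjusted p = 0.962) and Serpina1d (6549 ± 836 and 6672 ± 293 CPM, adjusted p = 0.853) did not pass the test.

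The largest falls among those that passed the test were those of the metal-binding Mt2 (log2 fold change -1.02, SE 0.14, adjusted p = 0.00179), the haem carrier Hpx (-1.004, SE 0.06, adjusted p = 4.82e-21), Slc39a14 (-0.95, SE 0.08, adjusted p = 1.39e-14) and the protease inhibitor Itih4 (-0.85, SE 0.06, adjusted p = 4.82e-18). The iron hormone hepcidin (Hamp) went the other way, at 242 ± 13.7 CPM in DIO and 722 ± 55.4 CPM in DIO + DHA (log2 fold change 1.57, SE 0.07, adjusted p = 2.46e-25). Serpina3k, a kallikrein inhibitor, also rose (0.20, SE 0.06, adjusted p = 0.0115). Without DIO library 4, or without DIO + DHA library 4, 1 gene of the list rose. The other pentraxin tested, Crp, measured 396 ± 5.95 and 420.1 ± 32.9 CPM (adjusted p = 0.479). Ptx3 had no count in any library, as had Ptx4 and Nptx2.

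**Figure D5:**
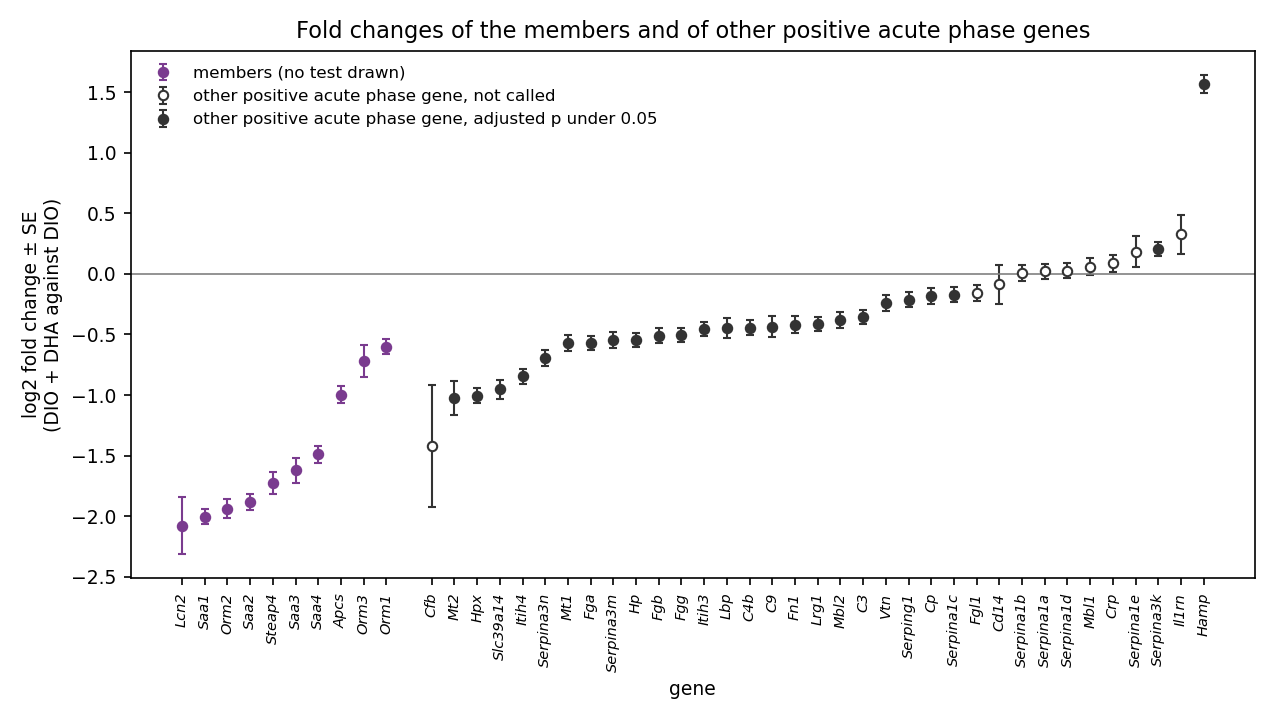
Log2 fold change ± SE (DIO + DHA against DIO, edgeR) of the 10 genes, on the left in purple, and of the 35 tested genes of the positive acute phase list, on the right (filled, adjusted p under 0.05; open, not called). The 10 lie between -2.08 and -0.60, most of the other genes lie between -1.02 and 0, and Hamp lies at 1.57.

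The negative acute phase genes, whose products decrease during inflammation, did not move in 1 direction. Of 14 tested, 4 rose, 3 fell and 7 did not pass, with a median log2 fold change of 0.00. Over all genes tested, 7.89% rose and 7.28% fell. Albumin (Alb) measured 39970 ± 2136 and 43522 ± 4081 CPM (adjusted p = 0.187) and transthyretin (Ttr) 23372 ± 990.1 and 23106 ± 1425 CPM (adjusted p = 0.905). The genes that rose were Apoa1 (log2 fold change 0.52, adjusted p = 8.06e-11), Apoa2 (0.17, adjusted p = 0.0358), Ahsg (0.40, adjusted p = 1.44e-07) and Rbp4 (0.36, adjusted p = 2.31e-06). Transferrin (Trf) fell (-0.42, adjusted p = 3.24e-08), as did Serpina6, the corticosteroid carrier, and Igf1.

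The cytokines that induce acute phase genes were at low counts or at 0 in liver RNA. Il1a (1.09 ± 0.190 and 1.93 ± 0.795 CPM, adjusted p = 0.356) and Il1b (1.58 ± 0.124 and 1.78 ± 0.537 CPM, adjusted p = 0.844) were detected in all 8 libraries, with at most 9 and 11 counts, and did not pass the test. Il6 and Il22 had no count in any library, Tnf at most 3, and Osm and Lif at most 1. A count of 0 allows 3 counts, which is 0.527 CPM in the deepest and 1.74 CPM in the shallowest library. Of the receptors, Il6ra, the interleukin 6 receptor, fell from 90.3 ± 7.83 to 57.6 ± 6.07 CPM (log2 fold change -0.65, adjusted p = 1.7e-07), and Il1r1, the interleukin 1 receptor, from 29.5 ± 5.38 to 11.8 ± 2.13 CPM (-1.24, adjusted p = 3.26e-09). Tnfrsf1a also fell (-0.35, adjusted p = 0.00904), and these 3 were the calls among 11 genes of the list tested. Over all genes tested, 7.28% fell. The shared signalling chain Il6st (62.6 ± 5.17 and 59.7 ± 9.51 CPM, adjusted p = 0.858) and the accessory chain Il1rap (42.5 ± 5.57 and 46.5 ± 6.16 CPM, adjusted p = 0.506) did not pass.

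Of 22 genes for signalling and transcription, all tested, 8 fell and 14 did not pass, where 7.28% of all genes tested fell. Cebpb, which encodes C/EBP beta, fell from 195 ± 4.99 to 94.1 ± 5.42 CPM (log2 fold change -1.05, SE 0.08, adjusted p = 5.14e-17), and Stat3 from 108 ± 6.35 to 64.9 ± 6.74 CPM (-0.74, adjusted p = 2.16e-09). The liver factor Hnf4a (-0.53, adjusted p = 7.12e-08) and Cebpd (-0.51, adjusted p = 0.0137) fell too, with Nfkbia, Nfkbiz and Myd88. Cebpa measured 124 ± 5.04 and 128 ± 15.8 CPM (adjusted p = 0.852) and the fasting-responsive factor Creb3l3 563 ± 31.9 and 561 ± 22.6 CPM (adjusted p = 0.962). Socs3, a target and brake of STAT3, measured 5.50 ± 0.919 and 4.17 ± 0.921 CPM (adjusted p = 0.248). Without DIO library 4, 5 of the 22 fell.

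Among 13 genes for serum amyloid A receptors and high density lipoprotein, 11 were tested. The shares over all genes tested were 7.28% lower and 7.89% higher. Fpr1, a formyl peptide receptor, Tlr2 and the ATP-gated channel P2rx7 fell, all from under 8 CPM on average, and Apoa1 and Apoa2 rose, as above. Lcat measured 1273 ± 16.3 and 1222 ± 174 CPM (adjusted p = 0.726) and Cd36 139.6 ± 25.8 and 124 ± 3.32 CPM (adjusted p = 0.305). The 3 falls were not all stable, since the count was 1 without DIO library 4 and 0 without DIO library 5, and it was 0 with DESeq2 and 1 with the replicate number as a block. The count of rises was 1 with DESeq2, and without DIO library 1 or 4, or DIO + DHA library 2, 4 or 5.

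Of 12 genes for Lcn2 receptors, Steap relatives and iron handling, 8 were tested. The shares over all genes tested were 7.28% lower and 7.89% higher. The iron importer Slc11a2 fell from 25.7 ± 1.84 to 18.7 ± 3.63 CPM (adjusted p = 0.0129) and the metalloreductase Steap2 rose from 2.59 ± 0.964 to 5.22 ± 0.870 CPM (adjusted p = 0.0327). The count of falls was 0 without DIO library 4 or 5 or DIO + DHA library 6. The count of rises was 0 without DIO library 1 or 5 or DIO + DHA library 1, 2 or 5, and with no filter on low counts. Both counts were 0 with DESeq2 and with the replicate number as a block. The ferritin genes Fth1 (2146 ± 288 and 2179 ± 294 CPM) and Ftl1 (1835 ± 221 and 1670 ± 219.97 CPM) and ferroportin, Slc40a1 (66.1 ± 3.56 and 56.1 ± 3.87 CPM), did not pass (adjusted p = 0.936, 0.535 and 0.0986). Mc4r had no count, and the Lcn2 receptor gene Lrp2 at most 1.

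Of 9 other lipocalins, 8 were tested, and 2 fell and 2 rose, where 7.28% of all genes tested fell and 7.89% rose. Ambp, the precursor of bikunin, fell from 3358 ± 129.98 to 2435 ± 159 CPM (log2 fold change -0.46, adjusted p = 1.6e-08) and the urinary protein gene Mup21 from 12.7 ± 0.719 to 5.12 ± 1.29 CPM (-1.30, adjusted p = 3.02e-06). Rbp4 rose, as above, and Ptgds, a prostaglandin synthase, was at 0.596 ± 0.516 and 7.75 ± 1.53 CPM (3.25, adjusted p = 6.67e-10). C8g and Mup3 did not pass (adjusted p = 0.646 and 0.097).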

How the data were processed

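Liver poly(A) RNA of 3 DIO and 5 DIO + DHA mice was sequenced by the authors with a 3′-enriched, barcoded method (SCRB-seq adapted), and reads were checked with FastQC 0.11.8, trimmed, aligned to GRCm39 with STAR 2.7.9a and counted on GENCODE release 33 exons with featureCounts 1.6.0. The deposited values are raw counts per gene. Per the file headers, counting ran without options for strand, multi-mapped or overlapping reads, and was therefore unstranded. Whether molecular identifiers were collapsed is not given in the sources used here, so intervals cover counting error only. The study's methods mention outlier detection, without naming libraries.

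Groups and replicate numbers came from the sample titles. Symbols came from GENCODE release 39 for 56323 of 56884 identifiers. Genes were left out where over 50% of libraries, in both groups, had under 5 counts, as in the study's methods. The 12412 remaining genes were fitted with edgeR 4.0.16 (TMM, quasi-likelihood test, Benjamini-Hochberg, R 4.3.3), with limma-voom (limma 3.58.1) and DESeq2 1.42.0 as alternatives. Log2 CPM used a prior count of 2. The method was tested on simulated data. The SE of an edgeR log2 fold change is its absolute value divided by the square root of the quasi-likelihood F statistic. It therefore uses a dispersion moderated across genes, not the values of that gene alone. No 2 libraries of a group agreed within sampling noise, with a chi-square per degree of freedom of at least 1.82. P-values measure the spread between these libraries, 1 per numbered mouse. For some genes this spread did not exceed counting error, as for Saa3 in DIO and Apcs in DIO + DHA. The muscle marker sums of the DIO + DHA libraries lay close together, at 1191 to 1246 CPM, as did the squamous sums, at 47.6 to 51.3 CPM. Whether these libraries vary independently was not tested, and without independence the p-values would be too small. The cage of each mouse is not given, so effects of diet and cage cannot be told apart. Numbers 1, 4 and 5 are shared by both groups, but same-numbered libraries did not deviate together (correlations -0.0133, -0.0135 and -0.0112).

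The members, gene lists and motifs were chosen with earlier results of these data known. The text names all 10 members, the 4 genes of each other list with the highest mean CPM, genes whose call is singled out, genes at or near 0, and the 5 genes most like Saa1. Lists overlap: Crp, Ptx3, Rbp4, Apoa1 and Apoa2 each stand in 2. Promoters were taken from RefSeq (GRCm38.p6), and gene coordinates and end windows from GRCm39. The values of 1 gene of the signalling list are not reported here.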

Additional observations from a re-analysis of the deposited data

Results flagged for a closer look

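Orm3 in DIO + DHA library 6, at 23.1 CPM, stood apart from the other 4 libraries of its group, which lay between 16.8 and 18.2 CPM. The gap was 0.767 of the range of the group, above the 95% critical value of Dixon's test for 5 samples. Chance flags about 1 in 20 groups, and 18 quantities were examined at both ends.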

How the results depend on the processing

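All 160 log2 fold changes of the 10 genes under alternatives (other scalings, tests, filters, the replicate block and leaving out each library) were negative. Of 476 alternative values in all, 26 moved, all of them counts that changed by over 1.5 times. The other 450 were counts within 1.5 times or values that moved by less than their spread. Genes called lower over the whole table numbered 904, against 601 with DESeq2 (716 higher, against 979). With the replicate number as a block, 721 genes were lower and 817 higher. The block lowered the calls among serum amyloid A receptor and lipoprotein genes from 3 to 1, and those among Lcn2 and Steap partners from 1 to 0 lower and from 1 to 0 higher, and moved no other list by over 1.5 times. With DESeq2, 0 of the receptor genes were lower and 1 higher, and 0 of the partners were lower and 0 higher, as were 0 higher with no filter. The cause was not tested.

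Leaving out 1 library gave 1 to 2 positive acute phase genes higher (1 without DIO library 4 or DIO + DHA library 4), 5 to 8 signalling genes lower (5 without DIO library 4), 0 to 3 receptor genes lower (1 without DIO library 4, 0 without DIO library 5) and 1 to 2 higher (1 without DIO library 1 or 4 or DIO + DHA library 2, 4 or 5). Partners lower ranged from 0 to 1 (0 without DIO library 4 or 5 or DIO + DHA library 6) and higher from 0 to 1 (0 without DIO library 1 or 5 or DIO + DHA library 1, 2 or 5). The median within-group r, -0.02 with all libraries, ranged from -0.07 (without DIO + DHA library 6) to 0.18 (without DIO or DIO + DHA library 1), and was above 0 also without DIO + DHA library 2 or 4. The shallowest library, with 1723800 counts, limits genes near 1 CPM.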
